A study of Arabidopsis thaliana with 12 samples.

Results

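ATG8 and ATG3 are core genes of autophagy, the route by which a cell wraps part of its cytoplasm in a double membrane and delivers it to the vacuole for breakdown. ATG8 is a ubiquitin-like protein that is attached to the lipid phosphatidylethanolamine in the growing membrane, where it helps the membrane expand and receives cargo through receptors. ATG3 is the E2-like enzyme that carries out the attachment, after ATG4 has trimmed ATG8 and the E1-like ATG7 has activated it. Plants keep many ATG8 genes, and in Arabidopsis autophagy is known for recycling under nutrient shortage and for tolerance of drought and salt.

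The members were ATG3 and 7 ATG8 genes, and their probe sets were those that the platform annotation assigns to 1 of these genes alone. This rule found 1 probe set for each of the 8 genes, and all 8 were among the 14495 tested of 22810 on the array. They were ATG3 (AT5G61500, 247542_at), ATG8B (AT4G04620, 255283_at), ATG8C (AT1G62040, 264285_at), ATG8D (AT2G05630, 265510_at), ATG8E (AT2G45170, 266106_at), ATG8F (AT4G16520, 245391_at), ATG8G (AT3G60640, 251393_at) and ATG8H (AT3G06420, 258880_at). The tested probe sets were those above the 40th percentile of their array on at least 3 arrays, and the lowest member value of all lay at percentile 50.4, so no member passed through 1 group alone. Each probe set is compared with itself across arrays and never with another gene's. Hybridisation of one ATG8 transcript to the probes of another was not tested.

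Each of the 12 samples was RNA of Arabidopsis seedlings 1 week old, hybridised to 1 Affymetrix ATH1 array, and 4 groups held 3 samples each. The lines were wild-type Col-0 (WT) and 46T, a line that overexpresses the transcription factor WRKY46, and seedlings of each were either left untreated (control) or dried on filter paper for 1 h at 22 °C, 60% humidity and dim light (dehydrated). Days in the growth chamber had 16 h of light (24 °C) and nights 8 h (21 °C). The labels name 1 overexpressing line and give no promoter. WRKY46 itself has no named probe set here, so the overexpression was not checked. Untreated seedlings were the only controls, so water loss, handling and dim light cannot be told apart. In RNA of seedlings, fewer cells of a type and less RNA per cell cannot be told apart either.

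The deposited values are log2 MAS5 signals, scaled to the same trimmed mean on every array. WT control replicate 1 stood apart from the other arrays on the second principal component, at 72.7, and results that rest on it are given with and without it. The lowest Spearman correlation within WT control, 0.910, was that of replicates 1 and 2 and singles out neither. The glyceraldehyde-3-phosphate dehydrogenase control probes, whose 3′ minus 5′ signal rises as RNA degrades, differed by 0.493 to 0.636 on the log2 scale in WT control, 0.428 to 0.485 in WT dehydrated, 0.575 to 0.675 in 46T control and 0.582 to 0.673 in 46T dehydrated arrays. The same measure for actin was larger and overlapped between the conditions in both lines, at 3.13 to 3.41, 3.21 to 3.41, 3.30 to 3.43 and 3.31 to 3.52 in the same order. Known stress genes rose after dehydration with the lines averaged: the zinc finger factor STZ rose by 4.33 ± 0.26 (SE), the U-box ubiquitin ligase PUB19 by 6.76 ± 0.20 and the dehydrin COR47 by 0.71 ± 0.16 on the log2 scale. Of these, COR47 did not pass in WT alone (0.31 ± 0.23; limma adjusted p = 0.438) and rose by 1.11 ± 0.23 in 46T (adjusted p = 0.00622). The other genes of this list of 7 (RD29A, RD29B, ERD10 and ERD7) had no named probe set. The list was chosen with earlier results of these data known, so these rises are no independent check. Markers that could check the tissue were rarely named: no shoot, seed or senescence marker had a named probe set. Of 6 root markers only the root hair expansin EXPA7 had one, at log2 signals from 3.38 to 5.97 and below the filter.

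After 1 h of dehydration 6 of the 8 members fell with the lines averaged: ATG8F, ATG8C, ATG8E, ATG8G, ATG8B and ATG3, by 0.44 to 0.74 on the log2 scale. ATG8D and ATG8H did not pass. These 6 of 8 compare with 12.4% of all tested probe sets called lower (limma, adjusted p below 0.05 over all 14495), and with 15.4% among the 9422 probe sets whose mean signal lay within the range of the members, 7.83 to 12.42. The median log2 difference of the 8 was -0.45, beside -0.05 over all tested probe sets. The 46T arrays did not differ from the WT arrays beyond the threshold for any member.

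**Figure D1:**
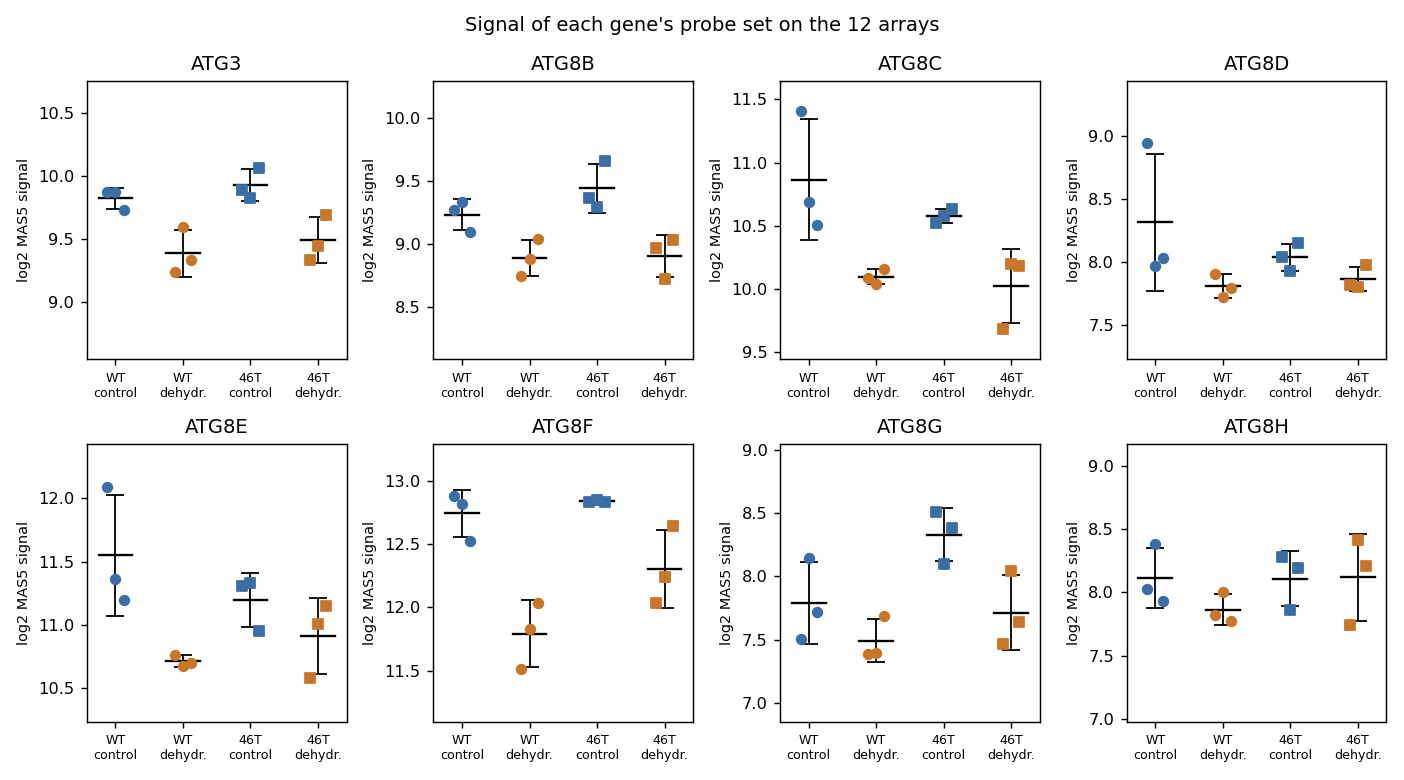
Log2 MAS5 signal (vertical axis) of each gene's probe set in the 4 groups (horizontal axis), with WT as circles, 46T as squares, control in blue and dehydrated in orange. Points are arrays, and black bars are the mean and SD of 3 arrays. Every panel spans the same log2 range. For ATG3, ATG8B and ATG8C all dehydrated arrays lie below all control arrays.

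ATG3, the conjugating enzyme, had log2 signals of 9.87, 9.87 and 9.73 on the WT control arrays and of 9.89, 9.82 and 10.06 on the 46T control arrays. After dehydration they were 9.23, 9.59 and 9.33 in WT and 9.33, 9.44 and 9.69 in 46T. Every dehydrated array was below every control array, whichever the line, which held for 3 of 8 members (ATG3, ATG8B and ATG8C) beside 4.99% of tested probe sets. Group means stood in the order 46T control (9.93 ± 0.13, SD, n = 3), WT control (9.82 ± 0.084), 46T dehydrated (9.49 ± 0.18) and WT dehydrated (9.39 ± 0.19), and the neighbours within a condition overlapped. ATG3 fell by 0.44 ± 0.11 (SE; limma adjusted p = 0.00817), which is 1.35-fold, with the lines averaged. The difference was -0.44 in each line alone and passed in neither (limma adjusted p = 0.0758 in WT and 0.0845 in 46T).

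The Arabidopsis ATG8 genes are commonly set in 3 groups by sequence, the first running from ATG8A to ATG8D. ATG8B gave 9.27, 9.33 and 9.09 in WT control and 9.37, 9.30 and 9.66 in 46T control. It gave 8.75, 8.88 and 9.04 in WT dehydrated and 8.97, 8.72 and 9.03 in 46T dehydrated. As with ATG3, no dehydrated array reached the lowest control array. The group means were 9.44 ± 0.19 (46T control), 9.23 ± 0.12 (WT control), 8.91 ± 0.16 (46T dehydrated) and 8.89 ± 0.14 (WT dehydrated; SD, n = 3), with overlap inside each condition. ATG8B fell by 0.44 ± 0.11 with the lines averaged (SE; limma adjusted p = 0.0104).

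ATG8C read 11.41, 10.69 and 10.50 in WT control and 10.53, 10.58 and 10.64 in 46T control. Dehydrated arrays read 10.09, 10.04 and 10.16 in WT and 9.69, 10.20 and 10.19 in 46T. Again the 2 conditions did not overlap, and the highest value belonged to the WT control array that stood apart. ATG8C fell by 0.66 ± 0.15 with the lines averaged (SE; limma adjusted p = 0.0046), or by 0.53 without that array (adjusted p = 0.00156). Its group means were 10.87 ± 0.48 in WT control, 10.58 ± 0.055 in 46T control, 10.10 ± 0.060 in WT dehydrated and 10.02 ± 0.29 in 46T dehydrated (SD, n = 3).

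For ATG8D the same array set the WT control apart: 8.94 on replicate 1 against 7.97 and 8.03 on the others. The 46T control values were 8.04, 7.93 and 8.15, and dehydrated values were 7.91, 7.73 and 7.79 in WT and 7.82, 7.80 and 7.97 in 46T. The 46T groups overlapped and the WT groups did not. The averaged difference was -0.34 ± 0.16 (SE; limma adjusted p = 0.138), and -0.18 without WT control replicate 1 (adjusted p = 0.207), so ATG8D did not pass in either case. Group means stood in the order 8.32 ± 0.54, 8.04 ± 0.11, 7.87 ± 0.094 and 7.81 ± 0.093 for WT control, 46T control, 46T dehydrated and WT dehydrated (SD, n = 3).

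The next sequence group holds ATG8E, ATG8F and ATG8G. ATG8F had the largest fall of the members with the lines averaged. It gave 12.88, 12.82 and 12.53 in WT control and 12.83, 12.85 and 12.83 in 46T control, where the 3 arrays lay close together. It gave 11.51, 11.83 and 12.04 in WT dehydrated and 12.03, 12.24 and 12.64 in 46T dehydrated. Within each line the conditions did not overlap, although 46T dehydrated replicate 3 exceeded WT control replicate 3. ATG8F fell by 0.74 ± 0.12 with the lines averaged (SE; limma adjusted p = 4.71e-04), a 1.67-fold fall that only 2.44% of tested probe sets exceeded. Its group means ran from 12.84 ± 0.0092 in 46T control through 12.74 ± 0.19 in WT control and 12.30 ± 0.31 in 46T dehydrated to 11.79 ± 0.27 in WT dehydrated (SD, n = 3).

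ATG8E showed 12.09, 11.36 and 11.19 in WT control and 11.31, 11.33 and 10.95 in 46T control. After dehydration the values were 10.76, 10.67 and 10.70 in WT and 10.58, 11.00 and 11.15 in 46T. The WT dehydrated arrays were tightly grouped below every control array, whereas 2 of the 46T dehydrated arrays lay within the range of the 46T controls. Group means were 11.55 ± 0.48, 11.19 ± 0.21, 10.91 ± 0.30 and 10.71 ± 0.046 in WT control, 46T control, 46T dehydrated and WT dehydrated (SD, n = 3). ATG8E fell by 0.56 ± 0.15 with the lines averaged (SE; limma adjusted p = 0.0148), and by 0.43 without WT control replicate 1 (adjusted p = 0.00953).

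ATG8G gave 7.50, 8.15 and 7.72 in WT control and 8.51, 8.10 and 8.39 in 46T control. The dehydrated arrays gave 7.39, 7.39 and 7.69 in WT and 7.46, 8.04 and 7.64 in 46T. The separation was in 46T, while the WT groups overlapped. ATG8G fell by 0.46 ± 0.15 with the lines averaged (SE; limma adjusted p = 0.04). This call was the least stable of the 6, since it was lost in 9 of 18 alternatives, and 8 of these left out 1 array (WT control 2 or 3, WT dehydrated 1 or 2, 46T control 1 or 3, or 46T dehydrated 1 or 3). The highest adjusted p among them was 0.107. Group means were 8.33 ± 0.21 in 46T control, 7.79 ± 0.33 in WT control, 7.71 ± 0.30 in 46T dehydrated and 7.49 ± 0.17 in WT dehydrated (SD, n = 3).

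ATG8H belongs with ATG8I to the remaining sequence group, whose proteins end in the glycine used for lipid attachment and so need no trimming by ATG4. Its values were 8.03, 8.38 and 7.93 in WT control, 8.28, 7.86 and 8.19 in 46T control, 7.82, 8.00 and 7.77 in WT dehydrated and 7.74, 8.41 and 8.21 in 46T dehydrated. All 4 groups overlapped, with means between 7.86 and 8.12. The averaged difference was -0.12 ± 0.14 (SE; 95% interval -0.43 to 0.19; limma adjusted p = 0.599). In the orders of group means given for ATG8C to ATG8G, neighbouring groups overlapped, except 46T control and WT dehydrated for ATG8C.

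**Figure D2:**
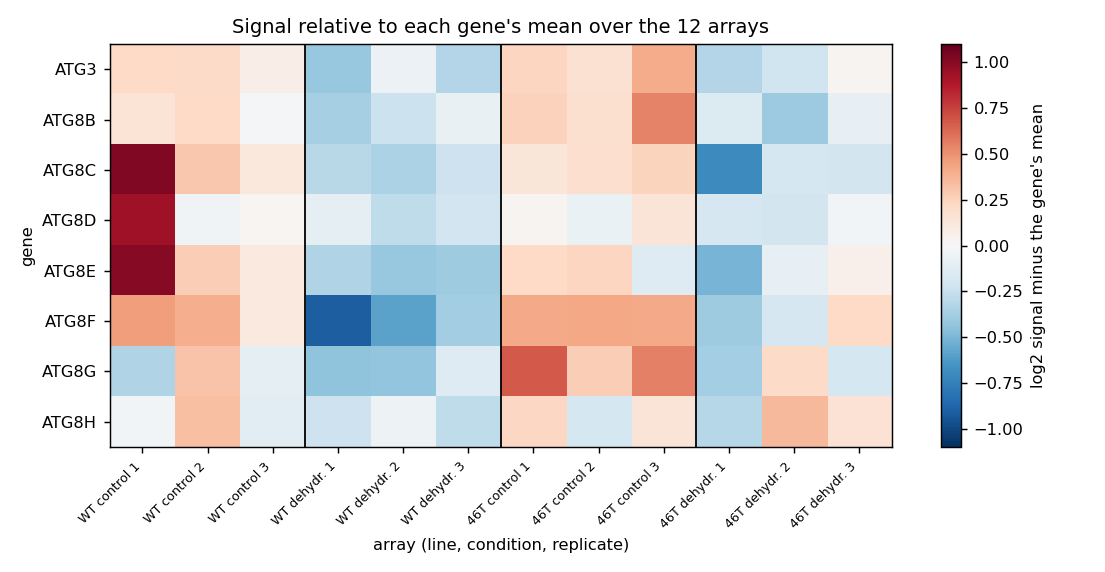
Log2 signal minus each gene's mean over the 12 arrays (colour scale), with genes in rows and arrays in columns ordered by group. WT control replicate 1 stands out for ATG8C, ATG8D and ATG8E, the 3 genes for which it lay 0.54, 0.63 and 0.54 above its group mean.

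Taken line by line, dehydration in WT lowered ATG8F (-0.95 ± 0.17, SE; limma adjusted p = 0.00241), ATG8E (-0.84 ± 0.21; adjusted p = 0.0215) and ATG8C (-0.77 ± 0.21; adjusted p = 0.0273). That is 3 of 8, beside 4.3% of tested probe sets called lower, and the conditions did not overlap for 6 of 8, beside 12.9%. ATG8D (-0.51), ATG3 (-0.44), ATG8B (-0.34), ATG8G (-0.30) and ATG8H (-0.25) did not pass. Single control arrays moved some of these: ATG8D was -0.19 without WT control replicate 1, and ATG8G was -0.12 without WT control replicate 2. The ATG8F call held in all 19 alternatives. Those of ATG8E and ATG8C were lost without any 1 of the 3 WT dehydrated arrays (adjusted p from 0.052 to 0.0934) and also when the 2 WT groups were fitted alone (0.0742 and 0.104), which left ATG8F as the only member called. Without WT control replicate 1, ATG8C was -0.50 (limma adjusted p = 0.0414) and ATG8E -0.57 (0.0325). In WT the dehydrated arrays also had the lower glyceraldehyde-3-phosphate dehydrogenase 3′ minus 5′ signal given above, without overlap, while the actin measure overlapped, and the part of either in these differences was not tested.

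In 46T, ATG8B alone passed, at -0.53 ± 0.16 (SE; limma adjusted p = 0.0447), so 1 of 8 was called beside 3.5% of tested probe sets called lower. The conditions did not overlap for 5 of 8 members, beside 24.7% of tested probe sets. In 11 of 19 alternatives ATG8B did not pass, with adjusted p up to 0.207, and leaving out any 1 of the 6 arrays of 46T or of the 3 of WT dehydrated was enough. Not passing were ATG8G (-0.62; adjusted p = 0.0892), ATG8C (-0.56; 0.111), ATG8F (-0.53; 0.0605) and ATG3 (-0.44; 0.0845). ATG8E (-0.29), ATG8D (-0.17) and ATG8H (0.01) lay nearer to 0. WT control replicate 1 bears on this list through the shared estimate of the spread. Without that array ATG3 (limma adjusted p = 0.046), ATG8C (0.0136), ATG8F (0.0313) and ATG8G (0.0415) passed as well as ATG8B (0.0227), so 5 of 8 were called. Calls rose over the whole array too: that fit called 2382 tested probe sets in either direction, against 1476 in the main fit. The averaged comparison uses the same arrays as the comparisons within each line and is no independent support for them.

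**Figure D3:**
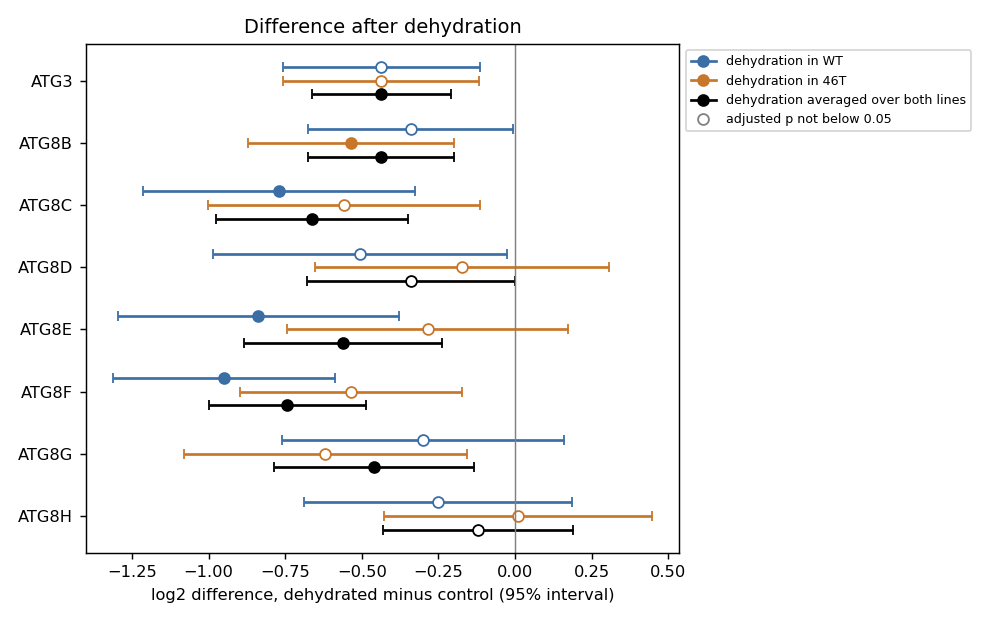
Log2 difference, dehydrated minus control, for each gene (horizontal axis) in WT (blue), in 46T (orange) and averaged over both lines (black), with 95% intervals of the limma fit. Filled points passed an adjusted p of 0.05. With the lines averaged, 6 of 8 genes are filled and all 8 points lie below 0.

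Whether the response differed between the lines was tested by the interaction, the difference in 46T minus the difference in WT. No member passed (0 of 8 by limma, also 0 of 8 at an unadjusted p below 0.05), and neither did any tested probe set (0%, with 291 at an unadjusted p below 0.05). ATG8E stood at 0.55 ± 0.30 (SE; 95% interval -0.10 to 1.20) and ATG8F at 0.42 ± 0.24 (-0.10 to 0.93), the positive sign meaning a lesser fall in 46T. ATG8D (0.33), ATG8H (0.26) and ATG8C (0.21) had the same sign, ATG8G (-0.32) and ATG8B (-0.19) the opposite one, and ATG3 lay at -0.00053 ± 0.21 (-0.45 to 0.45). WT control replicate 1 carried part of these values: without it ATG8E was 0.28, ATG8F 0.35, ATG8H 0.30, ATG8D 0.019, ATG8C -0.058 and ATG8G -0.18. These intervals are too wide to show that the lines responded alike.

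Between the lines, none of the 8 passed in control seedlings, in dehydrated seedlings or with the conditions averaged, beside 0.359%, 0.152% and 1.65% of tested probe sets called in either direction. At an unadjusted p below 0.05 (limma) there was 1 of 8 members in control seedlings, 1 of 8 in dehydrated seedlings and 2 of 8 averaged. Of the 14495 tested probe sets, 1984, 1398 and 3231 were at that level, so the members' counts lay near the share of all. In control seedlings the member was ATG8G, 0.54 ± 0.21 higher in 46T (SE; limma adjusted p = 0.334). Without WT control replicate 2, the highest ATG8G value of that group, the difference was 0.72 and passed (limma adjusted p = 0.0464). Without WT control replicate 1, the lowest ATG8G value of that group, the difference was 0.40 and did not pass (limma adjusted p = 0.748). In dehydrated seedlings it was ATG8F, 0.51 ± 0.17 higher in 46T (adjusted p = 0.367), where the lowest 46T array, 12.03, met the highest WT array, 12.04. The dehydrated arrays of the lines also differed in the glyceraldehyde-3-phosphate dehydrogenase 3′ minus 5′ signal, without overlap (0.428 to 0.485 in WT, 0.582 to 0.673 in 46T). The mean log2 signal of the poly-A control probe sets did not overlap there either (8.10 to 8.62 in WT, 7.71 to 7.92 in 46T). The actin measure overlapped, and the part of these in the line differences was not tested. Averaged over conditions, ATG8G was 0.38 ± 0.15 higher (limma adjusted p = 0.172) and ATG8F 0.30 ± 0.12 higher (adjusted p = 0.169). The averaged ATG8G difference was 0.47 without WT control replicate 2 (limma adjusted p = 0.0378) and 0.31 without WT control replicate 1 (0.256).

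**Figure D4:**
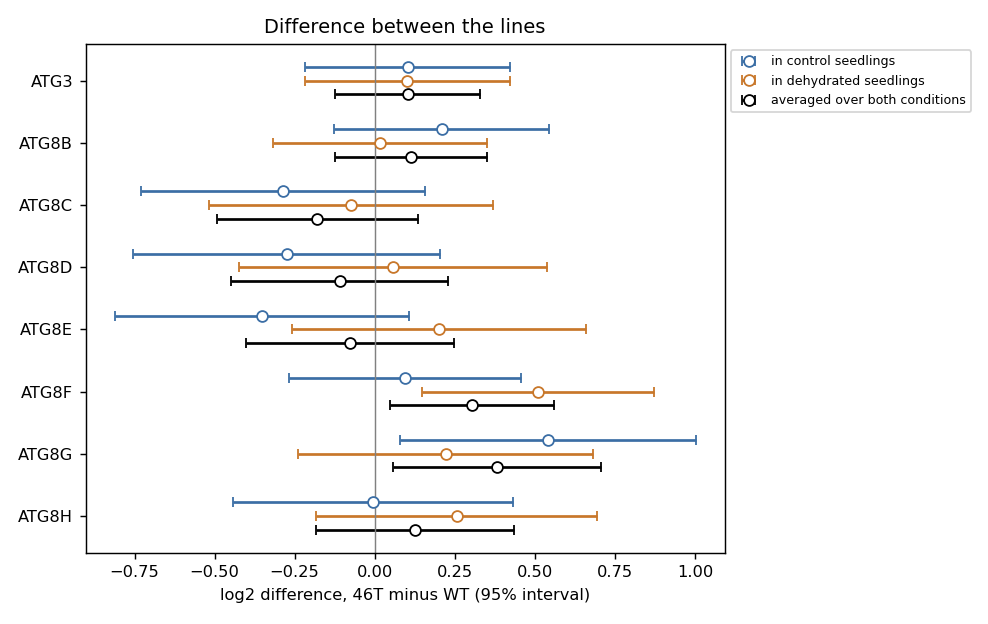
Log2 difference, 46T minus WT, for each gene (horizontal axis) in control seedlings (blue), in dehydrated seedlings (orange) and averaged over both conditions (black), with 95% intervals of the limma fit. Open points mark that no gene passed an adjusted p of 0.05. The ATG8G interval in control seedlings, the ATG8F interval in dehydrated seedlings and the averaged intervals of both genes lie above 0.

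The members' signals were mostly correlated across the 12 arrays. Of the 28 pairs of members, 27 had a Pearson r above 0, with a median of 0.62, from -0.0081 for ATG8D and ATG8G to 0.92 for ATG8C and ATG8E. Without WT control replicate 1 all 28 were above 0 and the median was 0.73. After the group means were taken out, 23 of 28 were above 0, with a median of 0.24. These correlations describe arrays that share their scaling and their groups.

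ATG8I and ATG8A, outside the members, also had a named probe set each. ATG8I, which the gene table lists as APG8H at AT3G15580, gave 11.97, 11.87 and 11.46 in WT control and 11.57, 11.61 and 11.79 in 46T control. Dehydrated arrays gave 10.91, 10.87 and 10.81 in WT and 10.91, 11.31 and 11.16 in 46T, all below the lowest control array. ATG8I fell by 0.72 ± 0.11 with the lines averaged (SE; limma adjusted p = 2.77e-04), by 0.90 ± 0.15 in WT (adjusted p = 0.00165) and by 0.53 ± 0.15 in 46T (adjusted p = 0.0419, a call lost in 11 of 19 alternatives). ATG8A, listed as APG8A, ranged from 9.53 to 10.48 in control and from 9.36 to 9.99 in dehydrated arrays, which overlapped, and its averaged difference of -0.42 ± 0.16 did not pass (adjusted p = 0.0783). It passed without WT control replicate 3 (-0.53; adjusted p = 0.0256) and was -0.29 without WT control replicate 1 and -0.15 with array weights.

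The rest of the pathway was sparsely named. Of 8 loci for ATG8 processing and conjugation other than ATG3, 2 had a named probe set, AT3G59950 and AT5G50230, and neither passed. In the ATG1 kinase complex, which starts autophagosome formation, 6 of 8 loci had a named probe set, and 6 of their 7 probe sets were tested. AT2G37840 had 2 of these, that of AT3G18770 was below the filter, and AT4G30790 and AT3G49590 had none. The median averaged difference of the 6 tested was -0.03, and 1 fell: ATG101 (AT5G66930), a subunit of that complex, by 0.56 ± 0.11 (SE; limma adjusted p = 0.00206). In the list for the phosphatidylinositol 3-kinase complex, 2 probe sets were tested and 1 rose, AT1G77890 by 1.04 ± 0.18 (limma adjusted p = 8.81e-04), from 6.32 ± 0.44 to 7.42 ± 0.24 in WT and from 6.72 ± 0.30 to 7.71 ± 0.18 in 46T (SD, n = 3). Its other probe set was below the filter, with group means of 4.20 and 5.19 in WT and 4.72 and 5.36 in 46T.

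No probe set was named for the 10 loci of membrane delivery around ATG9, ATG2 and ATG18, and the single tested receptor or adaptor locus, AT4G34660, did not pass (-0.16; limma adjusted p = 0.428). Of 3 tested genes upstream of autophagy, in the TOR and SnRK1 kinase pathways, 1 fell: AKINBETA1, a regulatory subunit of the energy-sensing kinase SnRK1, by 0.69 ± 0.13 (SE; adjusted p = 0.00207). RAPTOR1, the scaffold of the TOR complex, and AT4G16360 did not pass. The 1 tested gene of the list of energy and carbon starvation, EXO, also known as a brassinosteroid-responsive growth gene, fell by 0.64 ± 0.12 (adjusted p = 0.00142).

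**Figure D5:**
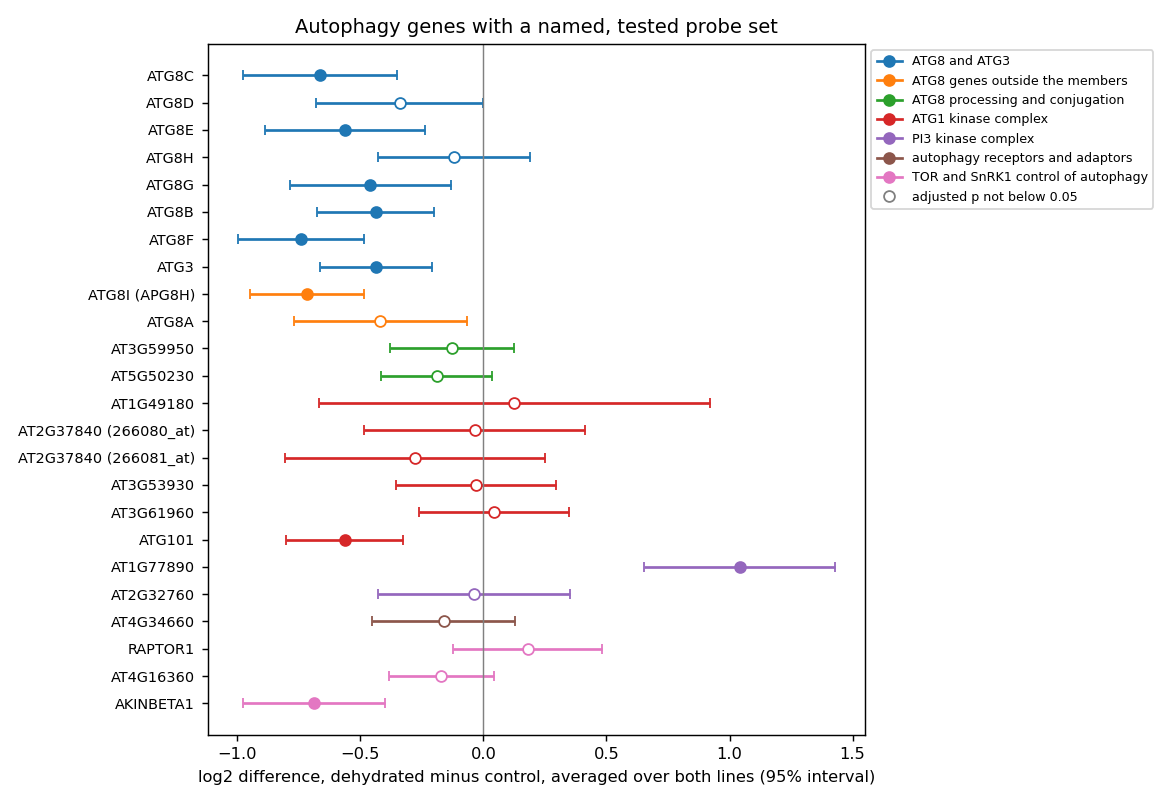
Log2 difference, dehydrated minus control, averaged over both lines (horizontal axis), for every autophagy gene with a named and tested probe set, coloured by gene list, with 95% intervals of the limma fit. Filled points passed an adjusted p of 0.05. ATG8I, ATG101 and AKINBETA1 are filled below 0 beside 6 members, and AT1G77890 is filled above 0.

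Genes outside the autophagy lists also fell after dehydration. With the lines averaged, the only named locus of the reference list, AT4G34270 (TIP41), fell by 0.57 ± 0.13 (SE, limma adjusted p = 0.00494). So did the stomatal lineage regulator FMA, the only tested guard cell marker, by 0.89 ± 0.22 (adjusted p = 0.00865). AT4G34270 passed in neither line alone (limma adjusted p = 0.0596 in WT and 0.0561 in 46T). FMA did not pass in WT alone (-0.41 ± 0.31, limma adjusted p = 0.446) and fell by 1.37 ± 0.31 in 46T (adjusted p = 0.0105). MUTE, the other guard cell marker with a named probe set, was below the filter. Its mean log2 signal was higher after dehydration in WT (1.99 in control, 3.75 in dehydrated arrays) and lower in 46T (4.29 and 2.05). The summed signal of FMA and MUTE, mostly that of FMA, was 6.62 to 7.20 on the log2 scale in WT control and 6.34 to 7.07 in WT dehydrated arrays. In 46T it was 7.16 to 7.59 in control and 5.46 to 6.39 in dehydrated arrays. The part of these genes in the members' differences was not tested.

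The genes whose patterns were most like a member's were taken from 7826 other tested probe sets with 1 gene name, by Pearson r over the 12 arrays, as a description. For ATG8F they were AT5G45360 (r = 0.97), AT5G27830 (0.96) and AT4G26240 (0.96). For ATG8E they were AT5G03345 (0.98), AT3G16190 (0.95) and P1R1 (0.94), and for ATG8C AT5G07960 (0.97), AT3G14430 (0.96) and AT2G29020 (0.96). ATG3 was most like AT1G72175 (0.97), ATG8B like AT1G60010 (0.95) and ATG8G like the glycerol-3-phosphate dehydrogenase gene GPDHC1 (0.94). Without WT control replicate 1 the same pairs had r between 0.89 and 0.97.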

How the data were processed

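Total RNA from 12 samples was measured on ATH1 arrays, and each sample was grouped by its title. The authors deposited log2 signals. These came from MAS5 according to the submitters' processing notes, which give no version. They were not normalized again, since the mean of the linear signals, after 2% was trimmed at both ends, was 500 on every array. All 12 columns were used, and no 2 arrays were identical. The small number of arrays limits precision.

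The 64 control probe sets were left out. The other probe sets above the 40th percentile of their array on at least 3 arrays entered 1 linear model with a mean for each group (limma 3.58.1 in R 4.3.3, lmFit and eBayes with a trend). P-values were two-sided, adjusted by Benjamini-Hochberg over all 14495, and called below 0.05. The labels speak of biological replicates without naming separate plants or cultures, so p-values measure the spread between these samples. Symbols follow the RefSeq gene table of TAIR10.1, which matched 13436 of 13513 probe sets with 1 gene. A further 503 name several genes.

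The members and gene lists were chosen with earlier results of these data known. Every member is named, and of the other lists the called genes or, where none passed, those with the smallest p. The pipeline was tested on simulated data. Alternatives were quantile normalization, median centring, no filter, a pseudocount of 50, array weights, only the groups compared, a replicate block and leaving out each array. Promoter motifs were not searched. Samples of the same replicate number did not deviate together in every pair, so the numbers were not taken to pair samples.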

Additional observations from a re-analysis of the deposited data

How the results depend on the processing

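The fall of ATG3, ATG8B, ATG8C, ATG8E and ATG8F with the lines averaged held in all 18 alternatives. Whichever array was left out, 5 to 6 members were called lower. These refits called 2647 to 4803 tested probe sets in either direction, against 3574 in the main fit. The share called lower is not given for them, so the members' count was not compared with that of all tested probe sets. With array weights, whose estimate stopped before full convergence, the WT differences were -0.53 for ATG8E and -0.45 for ATG8C, and ATG8F (0.38) and ATG8G (0.46) passed between the lines averaged over conditions, as did ATG8G (0.59) in control seedlings.

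Counts of called probe sets were 1680 for dehydration in WT, 1476 in 46T, 52 and 22 between the lines in control and dehydrated seedlings, 0 for the interaction, and 3574 and 239 for dehydration and line averaged. Array weights gave 3469, 3770, 2926, 432, 1, 5726 and 3752. The compared groups alone gave 751, 3079, 14 and 206 for the first 4. Between the lines in control seedlings, centring gave 81 (40 higher, 41 lower) and quantile normalization 71 (38 and 33), against 38 and 14. In dehydrated seedlings quantile normalization gave 36 and the pseudocount 50. For the line averaged, 165 were higher and 74 lower, against 181 and 146 after quantile normalization and 166 and 151 after centring. With 1 array left out the counts ran from 833 to 2372, 772 to 2382, 13 to 1640, 13 to 176, 0 to 0, 2647 to 4803 and 77 to 2693; the highest counts came without WT control replicate 1, or, for the lines in control seedlings and averaged, without WT control replicate 2. The replicate block gave 1778, 1592, 65, 24, 0, 3695 and 423 and left the members called as they were; correlations of same-numbered deviations ran from -0.12 to 0.35.

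Signs turned only for uncalled differences. Between the lines in control seedlings these were ATG3 (-0.020) and ATG8F (-0.028) after centring, and ATG8C (0.022), ATG8E (0.0036) and ATG8H (0.13) with array weights. In dehydrated seedlings they were ATG8B (-0.066 after quantile normalization and after centring, -0.053 with array weights) and ATG8D (-0.053 and -0.026 after quantile normalization and centring). For the interaction they were ATG3 (0.039, centring) and ATG8C (-0.026, array weights). With array weights ATG8H was 0.015 for dehydration averaged, and ATG8C, ATG8D and ATG8E were 0.0090, 0.0049 and 0.12 for the line averaged. With 1 array left out, signs also turned for ATG8H in 46T (-0.14 to 0.20), for ATG8D (-0.45 to 0.038), ATG8F (-0.013 to 0.16) and ATG8H (-0.095 to 0.13) between the lines in control seedlings, and for ATG8B (-0.054 to 0.11) and ATG8C (-0.16 to 0.095) in dehydrated seedlings. The same held for ATG3 (-0.10 to 0.10) and ATG8C (-0.058 to 0.39) in the interaction, ATG8D (-0.19 to 0.047) and ATG8E (-0.16 to 0.059) for the line averaged, and AT4G34660 for dehydration in WT (-0.29 to 0.028). The causes were not tested.

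Low MAS5 signals vary more on the log2 scale, and 169 to 394 values per array were at 0, none of them a member's.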
